A study of Mus musculus with 3 samples.

Results

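Expression of 6 cell cycle genes, Mki67, Top2a, Ccnd1, Ccnd2, Cdkn1c and Cbx3, was followed in single cells of 3 mouse mammary tumours. All 6 were taken by name and are called cell cycle genes below. Apart from Cbx3, a chromatin gene, they are the genes of the cell cycle machinery and its proliferation markers among the 258 deposited gene columns of the imaging panel. The design text states a somewhat larger panel, and only these columns were analysed here. No other gene of a list of 37 cyclins, kinases, inhibitors and replication or mitosis genes was among them. The tumours, titled MMTV-PyMT WT and numbered 1 to 3, formed a single group without a control, and each gave 1 formalin-fixed, paraffin-embedded section. In this mouse model, the mammary tumour virus promoter drives an oncogene, the middle T antigen of polyoma virus, in mammary epithelium. The sources used here do not say what WT stands for or how old the animals were. Single transcripts were counted in the tissue by MERSCOPE imaging, a form of multiplexed in situ hybridization, and assigned to segmented cells.

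The cell cycle is driven by cyclin-dependent kinases, and D-type cyclins, which respond to growth signals, start it by releasing the brake of the retinoblastoma protein. Ccnd1 (cyclin D1) is the D-type cyclin best known from mammary tumours, Ccnd2 (cyclin D2) is its relative, and Cdkn1c (p57Kip2) is an imprinted inhibitor of these kinases. Mki67 encodes Ki-67, a coat of mitotic chromosomes that is lost from resting cells, and Top2a encodes the DNA topoisomerase that separates replicated chromosomes. Cbx3 encodes HP1γ, a protein of methylated chromatin.

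Mki67 and Top2a, the pair with the highest co-detection in single tumour-gated cells below, belong to the genes of late cell cycle. Promoters of such genes often hold a cell cycle genes homology region (CHR, letters TTTGAA) and CCAAT boxes (letters CCAAT). Their promoters, from 250 bases before to 50 bases after the start of transcription, are shown to place these letters (RefSeq, GRCm38.p6). Capitals mark matches to either motif on either strand, and no match overlapped another. The Mki67 window lies at chr7:135716330-135716629 and the Top2a window at chr11:99024140-99024439, both on the minus strand.
Mki67: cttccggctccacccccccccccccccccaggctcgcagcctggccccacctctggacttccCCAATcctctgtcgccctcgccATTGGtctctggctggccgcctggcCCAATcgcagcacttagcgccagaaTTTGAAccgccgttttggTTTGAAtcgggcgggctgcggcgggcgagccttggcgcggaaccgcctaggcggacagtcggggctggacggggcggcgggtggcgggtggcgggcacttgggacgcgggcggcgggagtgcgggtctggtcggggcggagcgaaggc
Top2a: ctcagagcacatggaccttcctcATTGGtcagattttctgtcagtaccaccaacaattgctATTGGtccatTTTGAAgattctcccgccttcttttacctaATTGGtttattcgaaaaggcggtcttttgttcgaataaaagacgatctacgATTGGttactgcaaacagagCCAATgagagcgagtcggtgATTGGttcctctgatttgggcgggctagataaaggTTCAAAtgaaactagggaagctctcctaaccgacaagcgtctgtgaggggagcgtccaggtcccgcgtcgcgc
The Mki67 window held 2 CHR and 3 CCAAT matches, and the Top2a window held 2 CHR and 6 CCAAT matches. Of 32851 mouse promoter windows of the same length, 17.9% held the CHR letters, 37.4% the CCAAT letters and 6.95% both. The 2 windows listed for Cbx3 on chromosome 6 held neither. A match describes the letters only. Promoter entries were found for 3 of the 6 genes, and Ccnd1, Ccnd2 and Cdkn1c are named only. Ccnd1 and Cdkn1c lie on chromosome 7 like Mki67, and Ccnd2 lies on chromosome 6.

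Levels are transcripts of a gene per 1000 panel transcripts of the same cells, and values are given in the order of tumours 1, 2 and 3. Levels of different genes were not compared, since the files do not give the number of probes per gene. The sections gave 663145, 513963 and 786165 cells with 60759690 to 78051090 panel transcripts per section. After filtering, 453995 to 673638 cells per section with medians of 94 to 106 transcripts remained. The panel carries 27 Blank codes that match no gene, and they took 0.481% to 0.503% of all decoded transcripts. Of the 258 genes, 134 had more transcripts than the highest Blank in all 3 sections. Among them were 4 of the 6 cell cycle genes: Ccnd1 at 31.3, 35.9 and 37.0 times the highest Blank, Mki67 at 16.6, 8.22 and 12.8 times, Top2a at 5.93, 3.80 and 4.63 times and Cdkn1c at 5.11, 3.87 and 3.82 times. Ccnd2 lay at 1.46, 1.24 and 0.97 times and Cbx3 at 1.57, 1.72 and 0.92 times, so both were below the highest Blank in tumour 3. Statements on Ccnd2 and Cbx3 therefore rest on a signal close to false decoding wherever no higher level is given.

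Cell classes were set by marker genes. The tumour gate used the 4 of its 10 epithelial genes that were on the panel (Cdh1, Gata3, Sox9 and Cldn4) and took 66.8%, 69.2% and 70.6% of the kept cells. Classes set against it were endothelial-gated (Pecam1, Cdh5; 3893, 2331 and 1212 cells), pericyte-gated (Pdgfrb, Rgs5; 747, 684 and 607), fibroblast-gated (Col1a1 and 5 others; 112181, 82341 and 83853), macrophage-gated (Adgre1, Cx3cr1; 2522, 1213 and 260) and basal-keratin-gated (Krt5, Krt14, Krt15; 17353, 5471 and 14174). No class was free of the tumour gate's genes. Their summed level was 22.7, 24.8 and 23.1 per 1000 in endothelial-gated cells, 30.9, 40.1 and 26.5 in pericyte-gated, 79.3, 68.8 and 68.5 in fibroblast-gated, 69.1, 72.7 and 58.6 in macrophage-gated and 97.8, 87.0 and 98.3 in basal-keratin-gated cells, against 125, 127 and 106 in tumour-gated cells. All 4 of these genes were above the highest Blank in each class and none was at 0. The fibroblast gate passed 12.4% to 18.1% of kept cells. A bulk level of a class cannot tell fewer cycling cells from less RNA per cell.

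**Figure D1:**
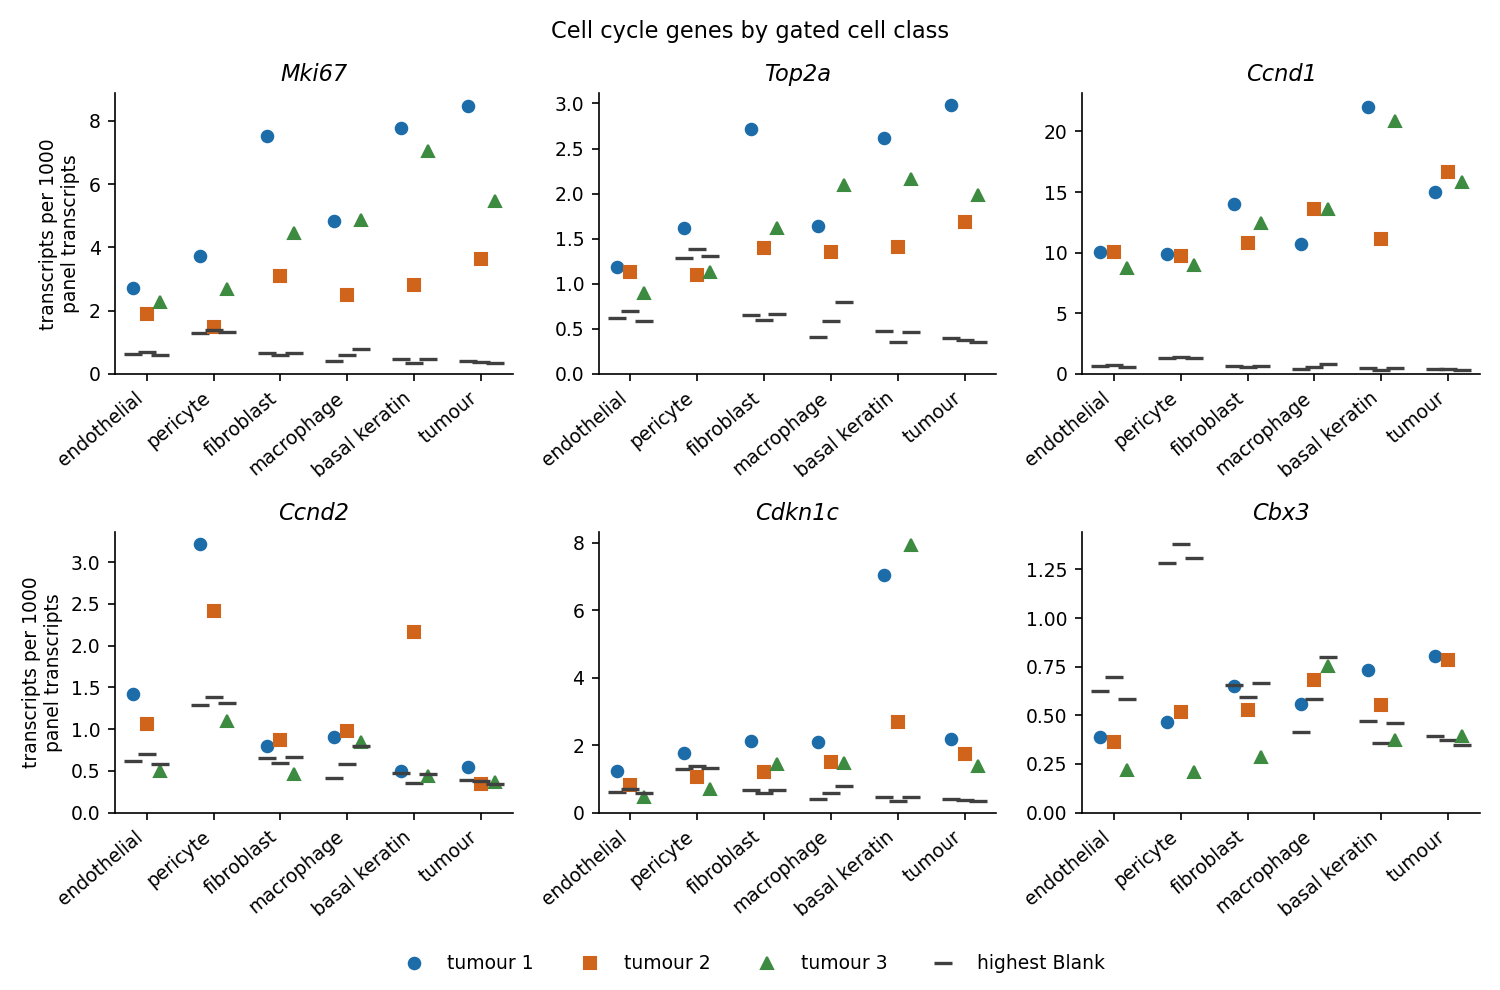
Level of each gene (vertical axes, transcripts per 1000 panel transcripts, starting at 0) by gated cell class (horizontal axes), with 1 point per tumour and a dash for the highest of the 27 Blank codes in the same cells. Mki67, Top2a and Ccnd1 were lower in endothelial- and pericyte-gated cells than in tumour-gated cells of every tumour, Ccnd2 was higher there, and Cdkn1c stood highest in basal-keratin-gated cells.

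Over all cells of each gate, proliferation genes were lowest in the vascular classes, which also held the least of the tumour gate's genes. Mki67 was at 2.71, 1.88 and 2.27 per 1000 in endothelial-gated cells and at 3.72, 1.49 and 2.68 in pericyte-gated cells, against 8.46, 3.65 and 5.47 in tumour-gated cells. Endothelial-gated cells of all 3 tumours lay below all tumour-gated values, whereas the pericyte-gated range reached into them. Mki67 was lower in endothelial-gated cells (-1.29 ± 0.16 as a log2 fold change with its standard error, adjusted p = 0.0017 over 3 tumours) and in pericyte-gated cells (-1.17 ± 0.15, adjusted p = 3.6e-07). Adjusted p-values are from edgeR's quasi-likelihood test on counts summed per tumour and class, with the tumour as a block and Benjamini-Hochberg adjustment over all panel genes. They weigh the difference within tumours against its spread over these 3 sections, and all class comparisons share the tumour-gated cells. The spread of each gene was estimated in part from all panel genes, and the standard errors come from the same test. Very small p-values therefore do not rest on the 3 differences of a gene alone. Top2a was at 1.18, 1.13 and 0.90 in endothelial-gated cells and at 1.61, 1.10 and 1.13 in pericyte-gated cells, against 2.98, 1.69 and 1.99 in tumour-gated cells. Neither vascular class overlapped the tumour-gated cells in Top2a, which was lower, at -1.02 ± 0.19 (adjusted p = 0.0060) in endothelial-gated and -0.77 ± 0.19 (adjusted p = 0.00090) in pericyte-gated cells. Top2a of pericyte-gated cells in tumours 2 and 3 did not exceed their highest Blank, which stood at 1.29, 1.38 and 1.31 per 1000.

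The order of the classes by mean Mki67 was basal-keratin-gated (5.88 ± 2.68 per 1000, SD, n = 3), tumour-gated (5.86 ± 2.43), fibroblast-gated (5.02 ± 2.27), macrophage-gated (4.07 ± 1.36), pericyte-gated (2.63 ± 1.12) and endothelial-gated (2.29 ± 0.42). Neighbours in that order overlapped in range throughout, and tumour 2 was the lowest in each of the 6 classes. At a fixed depth of 40 transcripts per cell, an Mki67 transcript was seen in 8.06%, 5.95% and 8.47% of endothelial-gated cells, against 19.97%, 9.37% and 16.2% of tumour-gated cells. Without thinning these shares were 17.5%, 13.99% and 17.7% in endothelial-gated cells, against 33.8%, 21.0% and 31.7% in tumour-gated cells. The fixed depth kept 3696, 2234 and 1146 endothelial-gated and 382756, 293265 and 439497 tumour-gated cells.

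Ccnd1, which is widespread in these sections, was also lower in the vascular classes. It was at 10.1, 10.02 and 8.72 per 1000 in endothelial-gated cells and at 9.90, 9.75 and 9.01 in pericyte-gated cells, against 15.03, 16.6 and 15.8 in tumour-gated cells. Both vascular classes lay below the tumour-gated cells without overlap, at -0.72 ± 0.10 (adjusted p = 0.0023) and -0.73 ± 0.13 (adjusted p = 2.3e-05). Basal-keratin-gated cells had the highest mean, 18.01 ± 6.0 (SD, n = 3), with 22.0 and 20.9 in tumours 1 and 3 and 11.1 in tumour 2, on both sides of the tumour-gated cells.

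Ccnd2 ran the other way and was the only member that passed as higher than in tumour-gated cells in the vascular, fibroblast and macrophage gates. Pericyte-gated cells had 3.21, 2.41 and 1.10 per 1000 and endothelial-gated cells 1.42, 1.06 and 0.50, against 0.55, 0.34 and 0.36 in tumour-gated cells. Pericyte-gated cells stood above the tumour-gated range in every tumour, by 2.35 ± 0.24 on the log2 scale (adjusted p = 4.3e-09). Endothelial-gated cells were higher in 3 of 3 tumours, by 1.19 ± 0.26 (adjusted p = 0.0103), with overlapping ranges. The highest Blank was at 1.29, 1.38 and 1.31 in pericyte-gated cells and at 0.62, 0.70 and 0.58 in endothelial-gated cells, so tumour 3 lay below it in both classes. Tumour-gated cells had a highest Blank of 0.40, 0.38 and 0.35, close to their Ccnd2 level.

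Cdkn1c and Cbx3 were lower in both vascular classes. Cdkn1c was at 1.24, 0.81 and 0.45 per 1000 in endothelial-gated cells, against 2.20, 1.75 and 1.37 in tumour-gated cells, without overlap (-1.15 ± 0.19, adjusted p = 0.0041), and tumour 3 lay below the highest Blank of endothelial-gated cells, at 0.58. In pericyte-gated cells it was at 1.78, 1.05 and 0.69 (-0.66 ± 0.20, adjusted p = 0.0071), below the highest Blank in tumours 2 and 3. Cbx3 was at 0.39, 0.37 and 0.22 in endothelial-gated and at 0.46, 0.52 and 0.21 in pericyte-gated cells, under the highest Blank in all of them, against 0.81, 0.78 and 0.39 in tumour-gated cells. Its log2 fold change was -1.01 ± 0.15 (adjusted p = 0.0026) in endothelial-gated and -0.75 ± 0.25 (adjusted p = 0.0118) in pericyte-gated cells.

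All 6 members thus passed in both vascular classes, where 72.1% of all genes passed in endothelial-gated and 67.4% in pericyte-gated cells. In 1 direction, 5 members were lower beside 51.2% and 42.6% of all genes, and 1 was higher beside 20.9% and 24.8%. The log2 fold change of the median gene was -0.46 in endothelial-gated and -0.39 in pericyte-gated cells under this scaling. Relative to that median, Mki67 was at -0.82 and -0.78, Top2a at -0.55 and -0.38, Ccnd1 at -0.26 and -0.34, Cdkn1c at -0.69 and -0.27, Cbx3 at -0.54 and -0.36 and Ccnd2 at 1.65 and 2.74 in endothelial- and pericyte-gated cells. With TMM scaling, Ccnd1 of endothelial-gated cells no longer passed (-0.22, adjusted p = 0.15), and in pericyte-gated cells only Ccnd2 and Mki67 did. Without tumour 2, Ccnd2 of endothelial-gated cells did not pass (0.95, adjusted p = 0.10), nor did Cdkn1c of pericyte-gated cells without tumour 2 (adjusted p = 0.081) or tumour 3 (adjusted p = 0.067) or Cbx3 without tumour 3 (adjusted p = 0.066). The differences were at least as large in cells with fewer transcripts of the tumour gate than of their own: Mki67 was then at -1.41 in endothelial-gated and -1.42 in pericyte-gated cells, and Ccnd2 at 1.25 and 2.56.

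In fibroblast- and macrophage-gated cells, D-type cyclins differed from tumour-gated cells in opposite directions. Of the 6 genes, 3 passed in fibroblast-gated cells, where 67.8% of all genes passed, and 3 in macrophage-gated cells, beside 41.9%. In 1 direction, 1 was higher and 2 were lower in each, beside 29.1% higher and 38.8% lower of all genes in fibroblast-gated and 19.8% higher and 22.1% lower in macrophage-gated cells. Ccnd2 was higher in fibroblast-gated cells, at 0.80, 0.87 and 0.46 per 1000, and in macrophage-gated cells, at 0.91, 0.97 and 0.84, against 0.55, 0.34 and 0.36 in tumour-gated cells. These differences were 0.74 ± 0.22 (adjusted p = 0.0266) and 1.13 ± 0.21 (adjusted p = 0.0035), and the macrophage-gated values did not overlap the tumour-gated ones. The fibroblast-gated value of tumour 3 lay below its highest Blank of 0.67. In macrophage-gated cells the highest Blank was at 0.41, 0.59 and 0.80, so the value of tumour 3, from 260 cells, was close to it. Ccnd1 was lower in both, at 14.01, 10.8 and 12.5 in fibroblast-gated cells (-0.36 ± 0.12, adjusted p = 0.0387) and at 10.7, 13.6 and 13.6 in macrophage-gated cells (-0.34 ± 0.09, adjusted p = 0.0186). Mki67 was lower in macrophage-gated cells, at 4.85, 2.50 and 4.87 (-0.53 ± 0.14, adjusted p = 0.0176). In fibroblast-gated cells it was at 7.53, 3.10 and 4.44 and did not pass (-0.23 ± 0.09, adjusted p = 0.066), while Cbx3 did (-0.45 ± 0.13, adjusted p = 0.0244) at levels below the highest Blank.

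Fibroblast-gated cells with fewer transcripts of the tumour gate than of their own differed from tumour-gated cells in all 6 genes, with Mki67 at -1.03 (adjusted p = 0.00035), Top2a at -0.95 (adjusted p = 0.00098), Ccnd1 at -1.03 (adjusted p = 0.00088) and Ccnd2 at 1.06 (adjusted p = 0.0111). Most genes did so in that setting, where 81 of all 258 were called higher and 122 lower. Mki67 of these fibroblast-gated cells averaged 2.85 ± 1.08 per 1000 (SD, n = 3). Under the same limit it was 2.10 ± 0.28 in endothelial-gated, 2.17 ± 0.77 in pericyte-gated, 3.94 ± 1.67 in macrophage-gated and 3.84 ± 1.73 in basal-keratin-gated cells. Ccnd1 averaged 7.80, against 8.59, 7.82, 10.7 and 12.9 in the same order. Low levels of these 2 genes were thus not particular to the vascular classes. Several of the calls in all fibroblast- and macrophage-gated cells were lost when a tumour was left out. Such a fit also has fewer sections. In fibroblast-gated cells, Ccnd1 did not pass without tumour 2 (adjusted p = 0.13), nor did Cbx3 without tumour 2 (0.057) or 3 (0.070), and Ccnd2 was at 0.44 without tumour 2. In macrophage-gated cells, neither Mki67 nor Ccnd1 passed without tumour 1 (adjusted p = 0.18 and 0.14) or tumour 2 (0.11 and 0.095), and Top2a passed without tumour 3 (-0.60, adjusted p = 0.0016). With TMM scaling, Ccnd1 of fibroblast-gated cells did not pass (-0.25, adjusted p = 0.10) and Cbx3 stood at the threshold. The median gene of fibroblast-gated cells was at -0.15, and relative to it Ccnd2 was at 0.89, Cbx3 at -0.30 and Ccnd1 at -0.21.

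Basal-keratin-gated cells, which carry the keratins of basal or myoepithelial cells, held the highest Cdkn1c. It was at 7.04, 2.68 and 7.93 per 1000, against 2.20, 1.75 and 1.37 in tumour-gated cells, above every tumour-gated value. The difference of 1.62 ± 0.42 did not pass after adjustment (adjusted p = 0.079). None of the 6 genes passed in edgeR's test, in which 4.26% of all genes did (3.88% higher, 0.388% lower) and 84 had an unadjusted p under 0.05. DESeq2 called Cdkn1c (1.65, adjusted p = 0.00034), but it called many more genes, 53 higher and 50 lower of 258. A Cdkn1c transcript was found in 39.5%, 16.0% and 42.5% of basal-keratin-gated cells, against 16.6%, 13.9% and 12.1% of tumour-gated cells. At 40 transcripts per cell, which 16747, 4718 and 13376 basal-keratin-gated cells reached, these shares were 19.3%, 7.495% and 23.2%, against 7.42%, 5.07% and 5.23%. Mki67 did not set the class apart, with 7.78, 2.82 and 7.04 per 1000 and a difference of -0.04 ± 0.22 (adjusted p = 0.92). Ccnd2 was at 2.16 in tumour 2, against 0.50 and 0.44 in tumours 1 and 3, so the 3 sections did not share a level. That section also had the lowest Cdkn1c, Ccnd1 and Mki67 in this class.

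In single tumour-gated cells, co-detection was measured as the number of cells with both genes over the number that independence gives among cells of like transcript totals, on the log2 scale. It is a description, since cells of a section share their tissue. Mki67 and Top2a stood out of the 15 pairs. They met in 52771, 23169 and 48138 cells, with log2 ratios of 0.62, 0.82 and 0.60, and only 0.213%, 0.135% and 0.213% of 8911 pairs of genes above background were higher. The 5th to 95th percentile of those pairs ran from -0.14 to 0.14, from -0.12 to 0.16 and from -0.18 to 0.17. Where independence was taken within tiles of 200 µm and coarser bins of transcript totals, the mean ratio of Mki67 and Top2a was 0.47. With 2 or more transcripts of each it was 1.504 ± 0.24 (SD, n = 3). The main setting gave 0.68 ± 0.12.

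**Figure D2:**
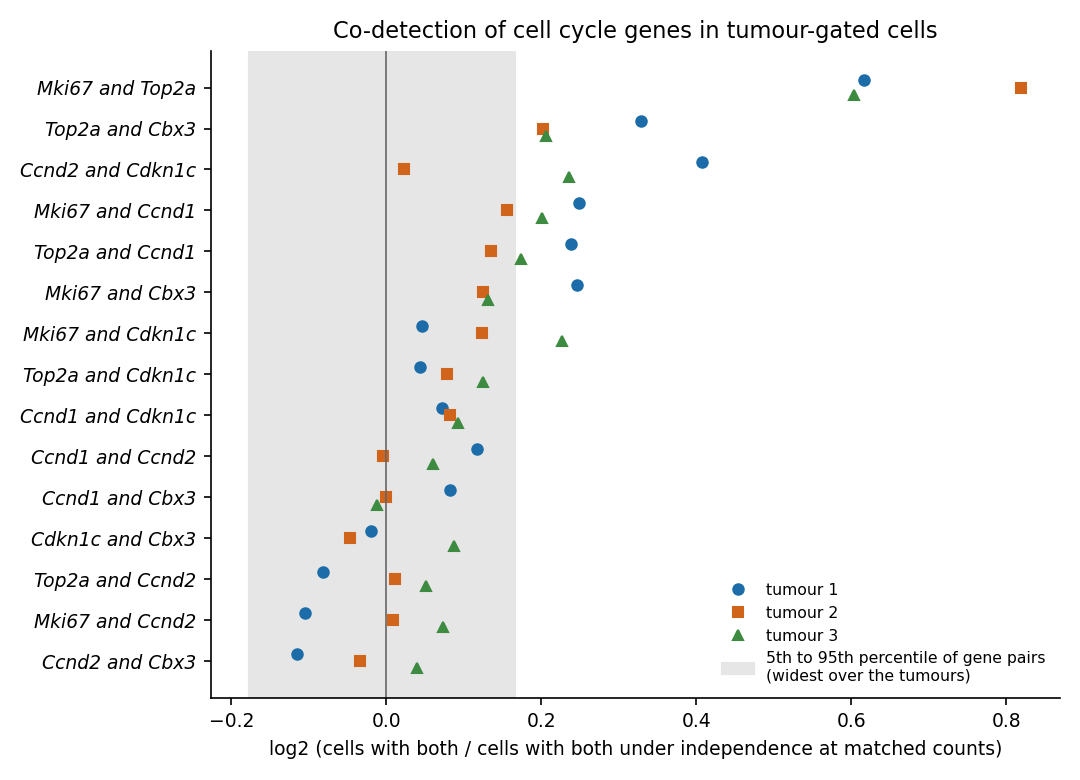
Log2 ratio of cells with both genes over the number under independence at matched transcript totals (horizontal axis) for the 15 pairs (rows), with 1 point per tumour. The grey band is the widest 5th to 95th percentile of gene pairs above background. Mki67 with Top2a lies beyond it in all 3 tumours, as does Top2a with Cbx3 at smaller ratios, while no pair lies below it.

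Ratios of the other pairs were smaller. Ccnd1 met Mki67 with log2 ratios of 0.25, 0.16 and 0.20 and Top2a with 0.24, 0.14 and 0.17. Cbx3 met Top2a with 0.33, 0.20 and 0.21, beyond the percentile band in all 3 tumours, and Mki67 with 0.25, 0.13 and 0.13. However, the ratios of Cbx3 with the 27 Blanks had medians of 0.06, 0.12 and 0.15 and reached 0.14, 0.33 and 0.37. Mki67, by contrast, had medians of 0.00, -0.01 and -0.04 with the Blanks. No pair of the 6 genes met less often than the band: the lowest ratios were those of Ccnd2 in tumour 1, at -0.11 with Mki67, -0.08 with Top2a and -0.12 with Cbx3, all inside the percentile band. The inhibitor Cdkn1c was not set apart from Mki67 either, with ratios of 0.05, 0.12 and 0.23. Ccnd2 and Cdkn1c met with 0.41, 0.02 and 0.24.

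Mki67 and Top2a also met within other classes. Transcript totals were matched there in coarser bins, which limits a comparison with the ratios above. The ratio was 1.02, 1.23 and 0.67 in endothelial-gated cells (175, 111 and 35 cells with both), 0.72, 1.16 and 0.44 in macrophage-gated cells (159, 77 and 21) and 0.55, 0.91 and 0.42 in basal-keratin-gated cells (2461, 291 and 1559). Fibroblast-gated cells with fewer transcripts of the tumour gate than of their own had 0.83, 1.05 and 0.84. In these fibroblast-gated cells Ccnd1 also met Mki67 with 0.40, 0.38 and 0.44 and Cdkn1c with 0.25, 0.30 and 0.31. In basal-keratin-gated cells of tumour 2, Ccnd2 met Ccnd1, Cdkn1c and Mki67 less often than independence gives, with ratios of -0.62, -0.72 and -0.54 among 5471 cells. Tumour-gated cells of that section had ratios of 0.00, 0.02 and 0.01 for these pairs.

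Tumour-gated cells with 2 or more Mki67 transcripts were then compared with cells without any, drawn to match in transcript totals. Of the other 5 genes, 3 were higher and none lower, beside 10.9% of all 257 genes higher and 13.6% lower. Top2a was at 7.60, 6.14 and 4.97 per 1000 in Mki67-positive cells, against 1.196, 0.72 and 1.02 in Mki67-zero cells. All positive values lay above all others, with a log2 fold change of 2.68 ± 0.17 (adjusted p = 3.9e-07, n = 3). Ccnd1 was at 26.5, 29.4 and 24.0 in Mki67-positive cells, against 10.4, 16.2 and 13.2 in Mki67-zero cells, again without overlap (1.03 ± 0.12, adjusted p = 0.00014). Cbx3 was higher in 3 of 3 tumours, at 1.18, 1.003 and 0.49 against 0.66, 0.74 and 0.35 in Mki67-zero cells, with overlapping ranges (0.58 ± 0.13, adjusted p = 0.0111). Cdkn1c, at 2.29, 1.95 and 1.59 in Mki67-positive and 2.22, 2.11 and 1.07 in Mki67-zero cells, did not pass (0.16 ± 0.16, adjusted p = 0.48), nor did Ccnd2 (-0.07 ± 0.11, adjusted p = 0.69).

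Outside the cell cycle, the genes with the largest rise in Mki67-positive cells were Wif1, a secreted Wnt antagonist (1.14 ± 0.17), Mylk, the myosin light chain kinase (0.68 ± 0.16), and Znrf3, a ligase that removes Wnt receptors (0.67 ± 0.12). Krt17, a keratin (-0.90 ± 0.20), Fosb, an immediate early factor (-0.79 ± 0.18), and Dll1, a Notch ligand (-0.77 ± 0.17), fell most. Without tumour 3, no gene at all passed, the named rises and falls included, and without tumour 2 there were 3 higher genes and none lower, so the falls were lost there too. Among the cell cycle genes, none passed without tumour 3 (Top2a 2.88, adjusted p = 0.074; Ccnd1 1.11, adjusted p = 0.086), and Cbx3 did not pass whichever tumour was left out (adjusted p = 0.057 to 0.14).

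**Figure D3:**
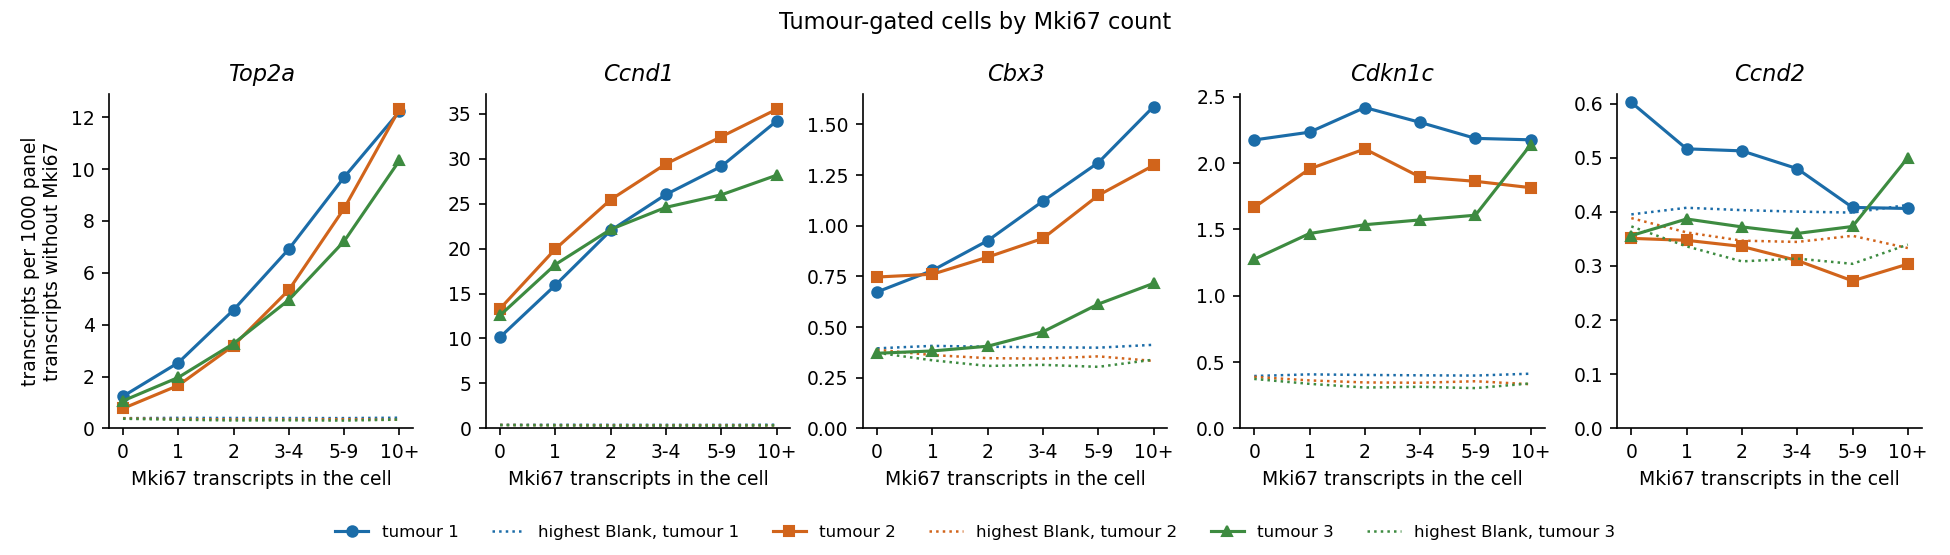
Level of 5 genes (vertical axes, transcripts per 1000 panel transcripts without Mki67) in tumour-gated cells grouped by their Mki67 transcripts (horizontal axes, classes of unequal width), with 1 line per tumour and dotted lines for the highest Blank. Top2a, Ccnd1 and Cbx3 rose with the Mki67 count in all 3 tumours, Cdkn1c and Ccnd2 did not do so in all 3.

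The more Mki67 a cell held, the more Top2a, Ccnd1 and Cbx3 it held, as the plot of levels by Mki67 count shows. Top2a was at 12.2, 12.3 and 10.3 per 1000 in cells with 10 or more Mki67 transcripts, against 1.24, 0.77 and 1.06 in cells with none. Ccnd1 was at 34.2, 35.5 and 28.2, against 10.2, 13.3 and 12.6, and Cbx3 at 1.59, 1.30 and 0.72, against 0.67, 0.75 and 0.37. These cells were not matched in depth, and the highest Blank stayed between 0.30 and 0.41 per 1000 across the classes. Cdkn1c did not move in step: it was at 2.18, 1.81 and 2.14 with 10 or more Mki67 transcripts, against 2.17, 1.67 and 1.28 with none. Read the other way, Mki67 peaked in cells with 2 Cdkn1c transcripts in tumours 1 and 2 (10.3 and 5.23) and with 3 to 4 in tumour 3 (8.41). In cells with 10 or more Cdkn1c transcripts it was at 8.02, 2.32 and 6.78, against 8.17, 3.38 and 5.18 in cells with none.

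Cells with both Mki67 and Top2a made up 12.7%, 7.37% and 10.1% of tumour-gated cells. They held 26.9, 29.9 and 24.2 Ccnd1 transcripts per 1000, against 9.57, 12.8 and 11.9 in cells with neither, while cells with Mki67 alone (18.6, 21.1 and 19.3) and Top2a alone (14.3, 17.8 and 16.9) lay between. Their median volume was 765, 898 and 839 µm3, against 497, 643 and 583 µm3 in cells with neither. Their median of 150, 213 and 166 transcripts, against 82, 98 and 87, moved with it. For matched transcript totals, their median volume was set over the mean of the medians of cells with neither, taken per bin of totals. This volume ratio was 1.09, 0.974 and 1.11, above 1 in tumours 1 and 3 and below it in tumour 2. Since it sets a median over a mean, a value close to 1 gives no direction. With 2 or more transcripts of each gene the ratio was 1.16, 1.008 and 1.19, and no direction is read in tumour 2.

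The comparison was repeated by Ccnd1, and Mki67 and Top2a were the members that passed. Mki67 was at 13.1, 4.62 and 7.88 per 1000 in cells with 2 or more Ccnd1 transcripts, against 4.15, 1.604 and 2.96 in matched Ccnd1-zero cells. Positive values lay above all zero values (1.53 ± 0.10, adjusted p = 0.0042). Top2a was at 4.42, 2.02 and 2.70, against 1.59, 0.86 and 1.16 in Ccnd1-zero cells (1.31 ± 0.12, adjusted p = 0.0125). These were 2 of the other 5 members, beside 3.89% of all genes (3.11% higher and 0.778% lower). Cdkn1c was higher in 3 of 3 tumours but did not pass (0.53 ± 0.13, adjusted p = 0.096), nor did Ccnd2 (0.33 ± 0.14, adjusted p = 0.17) or Cbx3 (0.18 ± 0.14, adjusted p = 0.39). Beyond the members, Hes1, a Notch target (0.77 ± 0.13), Col4a1, a basement membrane collagen (0.59 ± 0.09), and Id2, an inhibitor of differentiation factors (0.45 ± 0.07), rose most. Irf7, an interferon regulator (-0.82 ± 0.10), fell. Without tumour 1, no gene passed, and neither Mki67 (1.47, adjusted p = 0.087) nor Top2a (1.22, adjusted p = 0.087) passed, and Top2a did not pass without tumour 3 (adjusted p = 0.11), when 1 gene in all was called. At 40 or more transcripts per cell 3 genes were called, none of them lower, so Irf7 was not. Mki67 and Top2a were among the 3, so at most 1 of the named rises passed. With 1 or more Ccnd1 transcripts as the limit, only 2 genes were called, Mki67 and Top2a, and no rise or fall beyond the members. Without tumour 2, Ccnd2 passed too (0.50, adjusted p = 0.033).

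Ccnd2- and Cdkn1c-positive cells showed no such partners. In cells with 2 or more Ccnd2 transcripts (2706, 766 and 920), 0.391% of 256 genes passed, namely Sparc, a matrix glycoprotein, at 35.7, 25.1 and 18.4 per 1000 against 12.1, 8.71 and 8.28 in Ccnd2-zero cells (1.41 ± 0.19, adjusted p = 0.0365). No gene passed with TMM scaling, without tumour 2, with 1 or more transcripts as the limit or without the block, while up to 20 did in other settings. No member passed, and 40 genes had an unadjusted p under 0.05. Cdkn1c was at 6.64, 2.21 and 1.88 in Ccnd2-positive cells, against 2.21, 2.69 and 1.16 in Ccnd2-zero cells, a difference of 0.67 ± 0.39 (adjusted p = 0.44) with tumours 1 and 3 higher and tumour 2 lower. The tumour gate's 4 genes, none at 0, summed to 79.4, 109 and 93.5 in Ccnd2-positive cells, against 126, 129 and 105 in Ccnd2-zero cells, and their part in these values was not tested. Comparing 17290, 11844 and 12053 Cdkn1c-positive cells with as many Cdkn1c-zero cells called none of 257 genes in edgeR, where 54 had an unadjusted p under 0.05, while TMM scaling called 12 and DESeq2 49. Mki67 was at 9.74, 4.82 and 8.12 in Cdkn1c-positive cells, against 9.75, 4.60 and 5.31 in Cdkn1c-zero cells (0.23 ± 0.15, adjusted p = 0.48). The 3 basal keratins, none at 0, summed to 7.10, 2.21 and 6.61 in Cdkn1c-positive cells, against 4.30, 2.02 and 2.88 in Cdkn1c-zero cells, and their part was not tested.

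Among 130 other genes above background, Wif1 had the highest mean co-detection with Mki67 (log2 ratio 0.43 ± 0.19, SD, n = 3), Top2a (0.43 ± 0.13), Cdkn1c (0.45 ± 0.35) and Ccnd1 (0.12 ± 0.10). For Mki67 it was followed by Tcf7l1, a TCF family factor (0.23), and Znrf3 (0.23), and for Top2a by Znrf3 (0.29) and Mylk (0.24). Ccnd1 was followed by Hes1 (0.12) and Mgp (0.11), and Cdkn1c by Chad (0.39) and Mylk (0.37). At the other end, the interferon genes Isg15 and Irf7 and the Notch ligand Dll1 had the lowest ratios with Mki67 (-0.25, -0.19 and -0.22) and Top2a (-0.20, -0.19 and -0.18). Isg15 was also among the 3 lowest for Ccnd1 (-0.15), with Klf4 (-0.16) and Slpi (-0.13), and the lowest for Cdkn1c (-0.35), before the stress-response factors Fosb (-0.29) and Atf3 (-0.28). For Ccnd2 the highest were Ecrg4 (1.82, 0.49 and -0.03), Myl9 (1.06, 0.34 and 0.37) and Mgp (0.99, 0.29 and 0.17), where tumour 1 set the means, and the lowest Atf3, Cd14 and Anxa1 (-0.19 to -0.16). Ratios of Cbx3 were small, with Saa2 (0.17), Saa1 (0.15) and Axin2 (0.14) at the top and Ecrg4 (-0.15), Wnt7b (-0.11) and Pdgfa (-0.08) at the bottom.

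Position was examined in tumour-gated cells. Those with an endothelial-gated centre within 25 µm had more Mki67, Top2a, Ccnd1 and Cdkn1c than those with none within 75 µm. Mki67 was at 11.1, 4.85 and 7.40 per 1000 near, against 7.43, 3.15 and 5.19 far, higher in each tumour although the tumours overlapped (0.57 ± 0.06, adjusted p = 0.0038). Ccnd1 was at 20.3, 19.95 and 20.4 near, against 13.1, 15.6 and 15.1 far, without overlap (0.48 ± 0.07, adjusted p = 0.0130). Top2a was at 3.71, 2.17 and 2.64 near, against 2.82, 1.52 and 1.905 far (0.46 ± 0.07, adjusted p = 0.01003). Cdkn1c was at 2.68, 2.16 and 1.67 near, against 1.94, 1.67 and 1.31 far (0.39 ± 0.07, adjusted p = 0.0176). Both were higher near in 3 of 3 tumours, with overlapping ranges. Higher were thus 4 of the 6 members, beside 11.6% of all genes called, 8.53% higher and 3.1% lower. Ccnd2 (0.28 ± 0.09, adjusted p = 0.091) and Cbx3 (0.11 ± 0.08, adjusted p = 0.36) did not pass.

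Endothelial-gated cells themselves held less of these 4 genes, as given above. The endothelial gate's 2 genes summed to 1.48, 1.38 and 1.43 per 1000 in near cells, against 0.60, 0.61 and 0.55 in far cells. In tumour-gated cells without any transcript of a stromal or basal gate, the differences were 0.59 for Mki67, 0.44 for Top2a, 0.54 for Ccnd1 and 0.34 for Cdkn1c, and all 4 passed. Within tiles of 300 µm that held both kinds of cell, they were 0.51, 0.40, 0.44 and 0.40, and all 4 passed. The share of all genes that passed in these settings is not given here. Near cells were also deeper, with medians of 106, 127 and 112 transcripts against 93, 108 and 102, and the part of depth was not tested. Without tumour 2, Top2a (adjusted p = 0.077) and Cdkn1c (0.097) did not pass, nor did Cdkn1c without tumour 3 (0.062), and without tumour 1 Ccnd2 passed (0.36, adjusted p = 0.024).

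**Figure D4:**
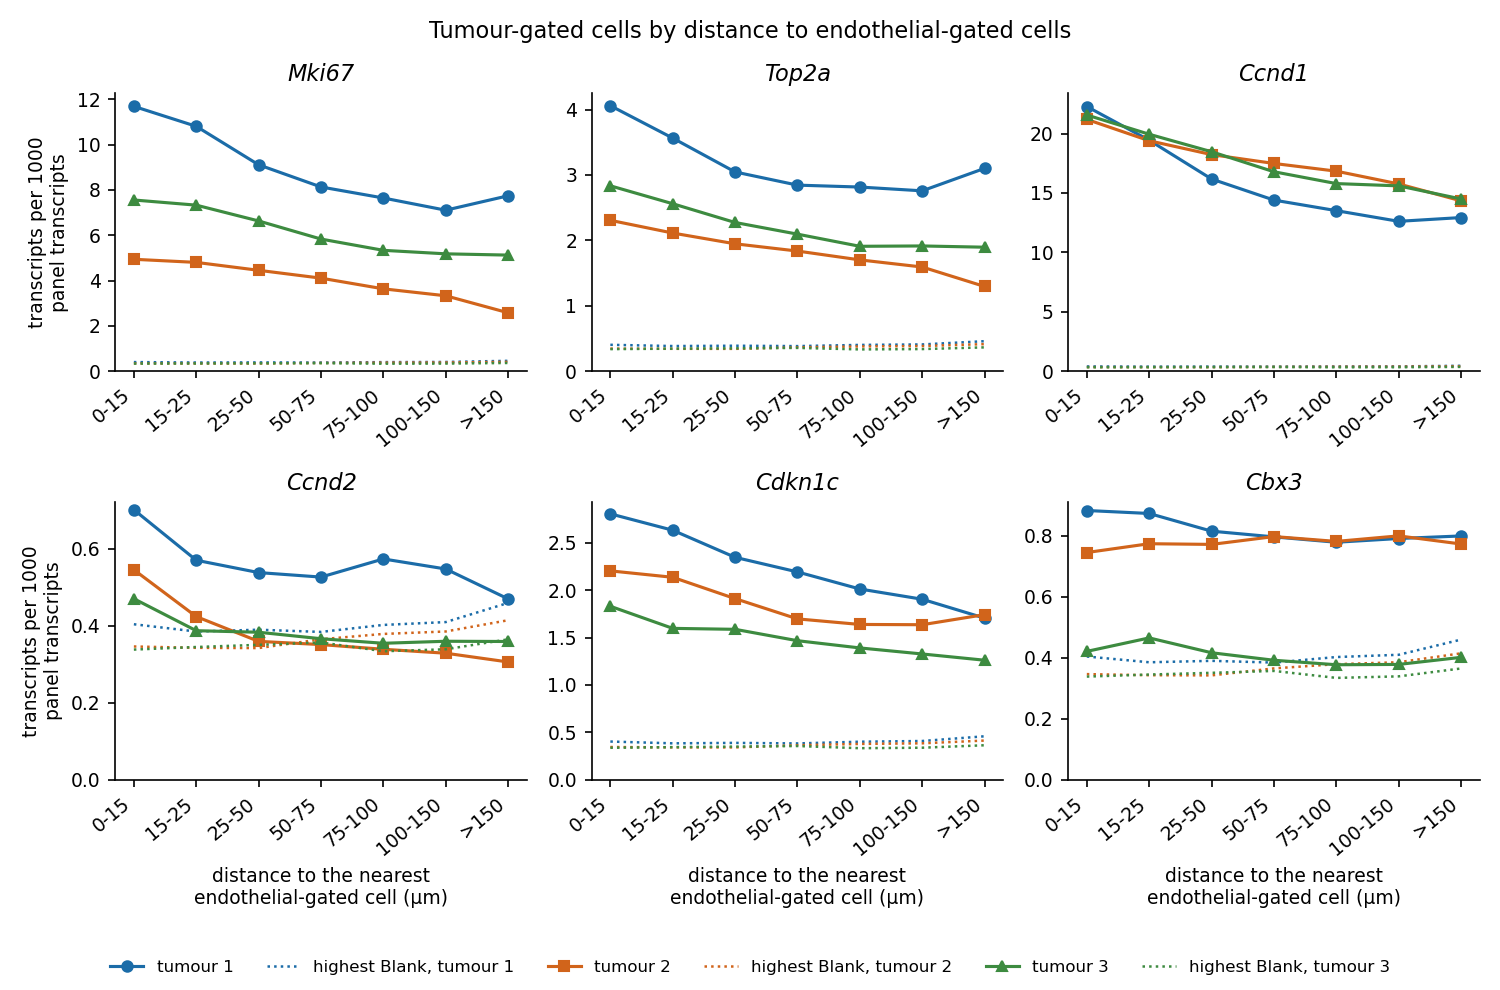
Level of each gene in tumour-gated cells (vertical axes, transcripts per 1000 panel transcripts, starting at 0) by distance to the nearest endothelial-gated cell centre (horizontal axes, µm, classes of unequal width), with 1 line per tumour and dotted lines for the highest Blank. Ccnd1 and Mki67 fell at every step out to 100 to 150 µm in all 3 tumours.

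Along that distance, Ccnd1 was at 22.3, 21.2 and 21.6 per 1000 within 15 µm and at 12.9, 14.3 and 14.5 beyond 150 µm. Mki67 was at 11.7, 4.94 and 7.56 within 15 µm and at 7.74, 2.58 and 5.13 beyond 150 µm. The decline was gradual, and in tumour 1 Mki67, Top2a and Ccnd1 were higher beyond 150 µm than at 100 to 150 µm.

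Near fibroblast-gated cells, none of the 6 genes passed, beside 3.49% of all genes called (2.33% higher, 1.16% lower) and 78 with an unadjusted p under 0.05. Mki67 was nevertheless at 8.98, 4.19 and 6.10 per 1000 near, against 2.93, 2.63 and 3.84 far, without overlap (0.98 ± 0.24, adjusted p = 0.067), and so was Top2a at 3.15, 1.91 and 2.13, against 1.67, 1.36 and 1.64 (0.59 ± 0.20, adjusted p = 0.116). The far cells of tumour 1 numbered only 1017, and the fibroblast gate's 6 genes summed to 16.8, 20.9 and 19.0 near, against 5.16, 3.86 and 3.53 far. Within tiles holding both kinds of cell, Mki67 (0.95, adjusted p = 0.0068), Top2a (0.71, adjusted p = 0.020) and Ccnd1 (0.70, adjusted p = 0.028) passed. In cells without a stromal or basal gate transcript Mki67 was at 0.52 (adjusted p = 0.22) and Top2a at 0.08, so that setting moved both values by more than 1.5 times. DESeq2 called Mki67 and Top2a. For these other settings, the share of all genes that passed is not given here.

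Macrophage-gated neighbours made no difference to Mki67 that could be told from the spread, at 7.66, 4.09 and 4.79 per 1000 near and 8.32, 3.41 and 5.48 far (-0.02 ± 0.12). None of the 6 genes passed in edgeR, where 0.775% of all genes did and 37 had an unadjusted p under 0.05, and DESeq2 called Ccnd2 (0.26, adjusted p = 0.0068). The share of all genes called by DESeq2 is not given here.

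At the tissue margin, up to 150 µm from the edge, Ccnd2 was the member that passed. It was at 1.08, 0.88 and 0.42 per 1000 there, against 0.48, 0.31 and 0.36 at 500 µm or deeper (0.99 ± 0.27, adjusted p = 0.0426). Tumours 1 and 2 were well apart and tumour 3 was not, and the highest Blank rose at the margin as well, at 0.62, 0.69 and 0.61, against 0.37, 0.35 and 0.34. That 1 of 6 members passed stands beside 23.6% of all genes higher and 0.388% lower, with the median gene at 0.30, so Ccnd2 was 0.68 above it. The fibroblast gate's 6 genes, none at 0, summed to 17.2, 17.2 and 21.8 at the margin, against 15.02, 13.6 and 12.04 in the interior. The 3 basal keratins summed to 5.89, 6.55 and 4.51, against 4.53, 2.03 and 3.17, and the 2 macrophage genes to 1.84, 2.14 and 0.93, against 1.42, 1.23 and 0.58, none at 0. The part of these genes in the result was not tested. With TMM scaling 0.75 did not pass (adjusted p = 0.16), nor did 0.88 without tumour 1 (adjusted p = 0.20), and without tumour 2 Ccnd1 passed as well (0.52, adjusted p = 0.00079). Mki67 was at 12.3, 4.50 and 5.35 at the margin, against 7.94, 3.56 and 5.57 in the interior, and did not pass (0.31 ± 0.17, adjusted p = 0.22).

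Tiles of 100 µm showed how unevenly the genes lay. The coefficient of variation between tiles beyond counting error was 57.9%, 94.96% and 67.8% for Mki67, 45.1%, 82.8% and 57.9% for Top2a, 57.0%, 67.6% and 56.8% for Ccnd1 and 74.1%, 96.6% and 101% for Cdkn1c, beside medians of 43.9%, 51.3% and 53.9% over genes above background. Cbx3, at 28.1%, 29.6% and 35.9%, was below the median of the Blanks (36.0%, 39.7% and 43.8%). Ccnd2 was at 171% in tumour 1 and at 63.7% and 51.9% in tumours 2 and 3. Single Blanks reached 262%, 74.5% and 795%, so single false codes could be as uneven as a gene. Over tiles of 200 µm (1238, 1754 and 1903), Mki67 correlated with Top2a at r = 0.71, 0.87 and 0.86 and with Ccnd1 at 0.79, 0.64 and 0.66, across tiles of the same section. Cdkn1c correlated with Mki67 at -0.09, 0.10 and 0.38. Levels in adjoining tiles of 100 µm correlated at 0.55, 0.52 and 0.69 for Mki67 and at 0.68, 0.53 and 0.72 for Cdkn1c, while Blanks reached 0.37, 0.28 and 0.42.

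**Figure D5:**
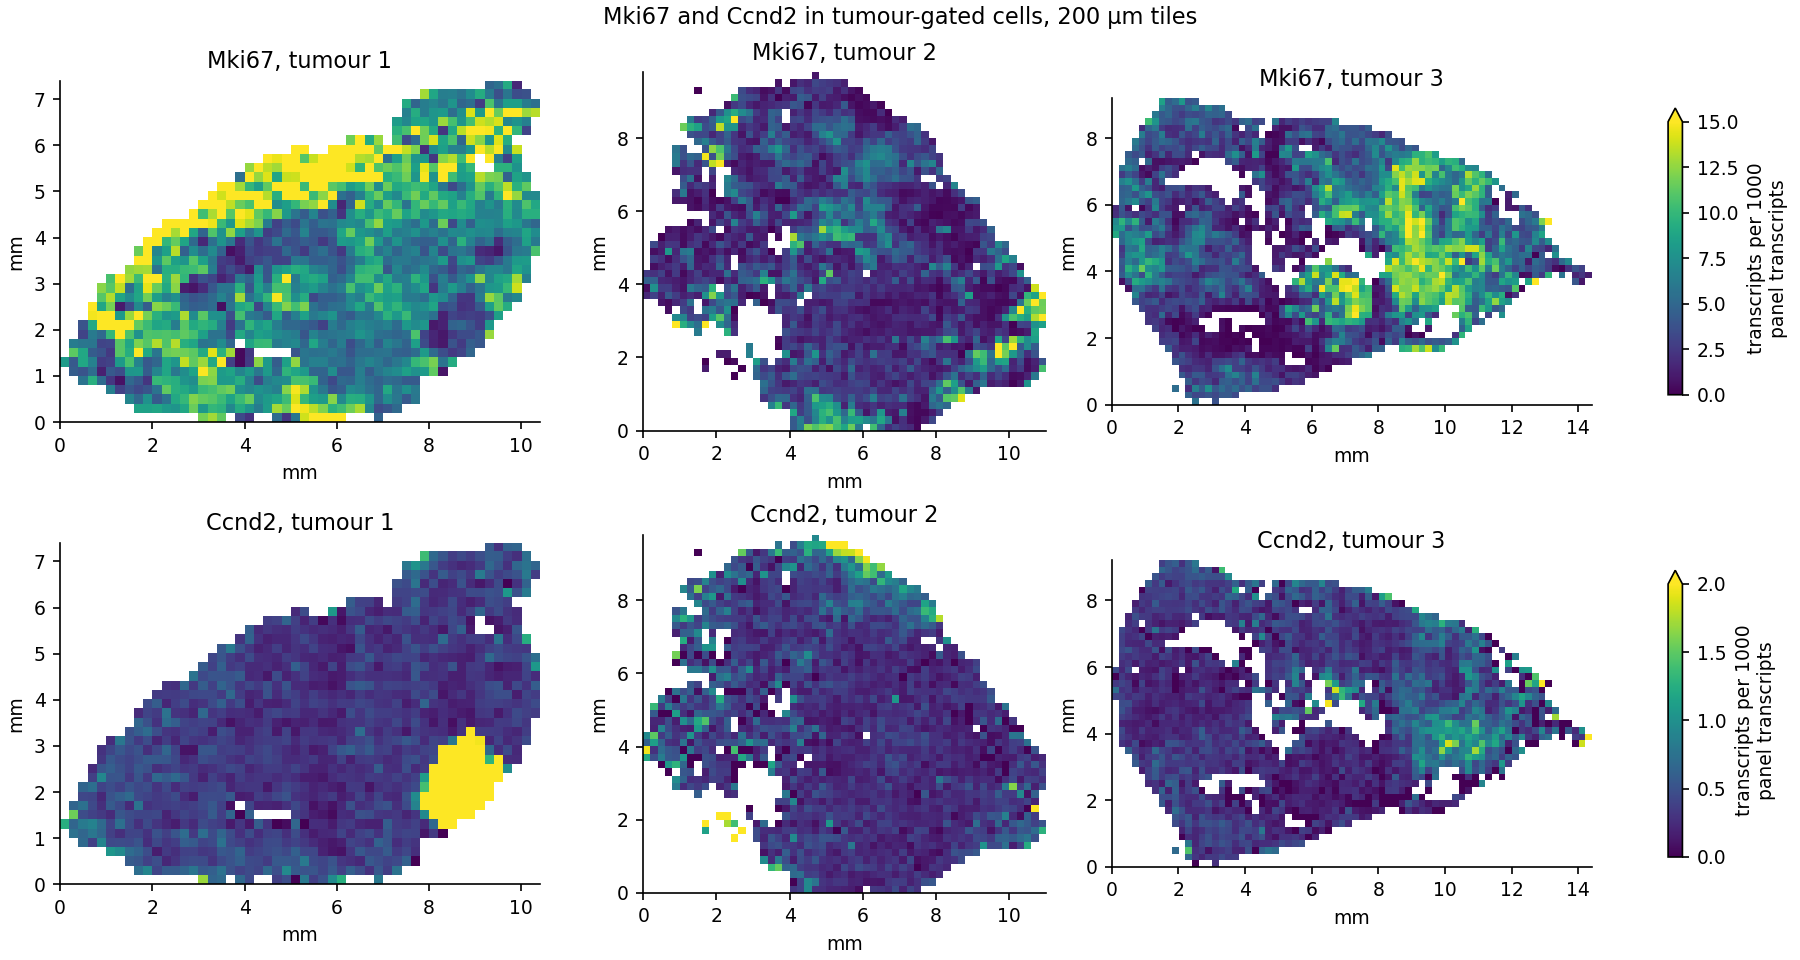
Mki67 (upper row) and Ccnd2 (lower row) in tumour-gated cells of tiles of 200 µm (axes in mm; colour, transcripts per 1000 panel transcripts, levels above the scale's end drawn in its last colour; tiles with fewer than 20 tumour-gated cells left white). Mki67 forms broad zones in each section, and Ccnd2 marks a single patch in tumour 1 that is low in Mki67.

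High Ccnd2 levels of tumour 1 lay in a single place. All 59 of its 1238 tiles at 2 or more Ccnd2 transcripts per 1000 joined into a patch of 2.36 mm2, 1.8 mm wide and 2.2 mm high, whereas the largest such group had 3 tiles in tumour 2 and 1 in tumour 3. The patch was outlined on Ccnd2 itself, so its Ccnd2 values describe the choice, and no test is given. It held 3.92% of the tumour-gated cells and 35.7% of their Ccnd2. Tumour-gated cells had 5.88 Ccnd2 transcripts per 1000 in the patch and 0.37 outside it, where the highest Blank was at 0.65 in and 0.39 outside. Outside the patch, Ccnd2 of tumour 1 was thus below its highest Blank, as in tumour 2.

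The other cell cycle genes differed there too. Cdkn1c, the inhibitor, was at 6.24 per 1000 in tumour-gated cells of the patch and 2.06 outside. Mki67 was at 4.55 in the patch and 8.59 outside, and Top2a at 1.80 in and 3.02 outside. Ccnd1 was near equal, at 15.5 in the patch and 15.02 outside. Basal-keratin-gated cells of the patch were not richer in Cdkn1c, at 4.17 in it and 7.07 outside. Ccnd2 and Cdkn1c were high together in patch cells that passed no gate, at 6.90 and 8.14 per 1000 there, against 0.76 and 1.89 in such cells outside. Both were also higher in the macrophage-gated (5.07 and 8.32, against 0.67 and 1.74), fibroblast-gated (5.35 and 3.85, against 0.74 and 2.10) and endothelial-gated cells (4.11 and 2.11, against 1.30 and 1.205) of the patch. Cells passing no gate made up 31.5% of the patch and 7.43% of the rest, tumour-gated cells 58.8% and 67.2%, and fibroblast-gated cells 6.91% and 18.6%, so the patch also differed in its marker genes. It lies in 1 section, and these values have no replicate. Leaving it out, a choice made after the map was seen, the mean co-detection of Ccnd2 and Cdkn1c was 0.11, against 0.22 with it, and Cdkn1c in Ccnd2-positive cells was at 0.14, against 0.67. The Ccnd2 differences of the vascular classes were then 1.35 in endothelial-gated and 2.54 in pericyte-gated cells.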

How the data were processed

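The deposited cell-by-gene tables hold whole-number transcript counts per segmented cell and, per the file headers, 27 Blank codes beside the genes. The submitters' processing notes name Scanpy 1.9.3. How transcripts were decoded and cells segmented is not stated in the sources at hand. Cells with 20 or more panel transcripts and a volume of 50 up to 3 times the section's median were kept. Volumes and positions were taken as µm, since the headers give no unit. No doublet caller was run. A gate needed 2 of its genes (for the tumour gate, of 4 on the panel), 3 transcripts and 3% of a cell's transcripts. Counts were summed per tumour and arm and tested with edgeR 4.0.16 (quasi-likelihood, library-size scaling, R 4.3.3), with DESeq2 1.42.0 and TMM as alternatives, for 13 comparisons. Both arms come from the same tumour, so the tumour was a block; the pairing needs no other check. Positive and zero cells were matched in transcript totals by a seeded draw. The edgeR script was tested on simulated data. Named were the 6 genes, the 3 genes with the highest and lowest co-detection with each, and, per positive-against-zero comparison, up to 3 genes with the largest called rise and fall; a gene that this rule names is not reported here. The genes, lists and tests were chosen with earlier results of these data known.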

Additional observations from a re-analysis of the deposited data

How the results depend on the processing

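Over all settings and comparisons, 808 values were refitted. No called value changed sign, and 43 uncalled values did. In the main setting, none of the values concerned was larger than 0.24 on the log2 scale. Leaving out the low-count filter, or asking for 40 transcripts per cell, changed no call of the 6 genes. Counts over all genes did change at 40 transcripts: 22 higher and 29 lower in place of 28 and 35 in Mki67-positive, 3 higher and 0 lower in place of 8 and 2 in Ccnd1-positive and 15 in place of 1 in Ccnd2-positive cells, and 0 in place of 2 near macrophage-gated cells. The numbers of cell cycle genes called moved by over 1.5 times as follows. Without the replicate block, which ignores that both arms share a tumour, 3 of 6 passed in pericyte-gated, 0 of 3 in fibroblast-gated and 1 of 3 in macrophage-gated cells, and 1 of 3 in Mki67-positive and 0 of 2 in Ccnd1-positive cells. That setting also left 0 of 1 at the margin and 0 of 4 near endothelial-gated cells. Of all genes, it called 55 higher and 82 lower in pericyte-gated, 44 and 7 in fibroblast-gated and 38 and 12 in macrophage-gated cells. It called 1 higher and 0 lower in Mki67-positive cells and none in Ccnd1-positive cells. TMM scaling left 2 of 6 in pericyte-gated cells, beside 85 higher and 67 lower of all 258 genes, and 0 of 1 at the margin. DESeq2 called 5 in place of 3 in fibroblast-gated cells, 1 in place of 0 in basal-keratin-gated cells and near macrophage-gated cells, and 2 in place of 0 near fibroblast-gated cells. Smaller moves under DESeq2 were 4 in place of 6 in pericyte-gated and 3 in place of 2 in Ccnd1-positive cells. Calls over all genes moved too. DESeq2 called 84 higher and 115 lower in fibroblast-gated, 53 and 50 in basal-keratin-gated, 73 and 74 in pericyte-gated and 33 and 48 in Ccnd1-positive cells. In the same order, edgeR called 75 and 100, 10 and 1, 64 and 110, and 8 and 2. Near fibroblast-gated cells, 1 passed with limits of 15 and 50 µm, 3 within tiles and 1 without the Ccnd2 patch, and near endothelial-gated cells those limits gave 5 in place of 4. Counts over all genes are not given here for these settings by position. Cells with fewer tumour-gate transcripts than their own gave 6 in fibroblast-gated cells, beside 81 higher and 122 lower of all 258 genes. With each tumour left out in turn, the number called ranged between 1 and 3 in fibroblast-gated and between 1 and 4 in macrophage-gated cells. It ranged between 0 and 2 in Mki67-positive cells, between 0 and 3 in Ccnd1-positive cells, between 0 and 2 at the margin and between 2 and 5 near endothelial-gated cells. The volume ratio of cells with Mki67 and Top2a was 1.06, and 1.03 to 1.10 with a tumour left out. Settings on the Ccnd2 patch and on fibroblast neighbours were chosen after seeing the data. Where a cause is not part of a setting, it was not tested. With 3 sections of 1 group, small differences could not be resolved, and Ccnd2 and Cbx3 lay near the Blanks. Cell classes rest on 2 to 6 genes, and no class was free of tumour-gate genes.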
